A study of Mus musculus with 14 samples.

Results

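The interferon response genes described here are 43 genes that cells switch on when interferon binds its receptors. They were chosen by name, as a list, and all 43 were found among the 45706 genes of each of both deposited count tables. By their roles they were 23 effectors, 4 transcription factors, 4 sensors of foreign nucleic acid, 6 regulators, 3 genes of antigen processing and 3 other induced genes. Their RNA was followed in 14 libraries of mouse blood-forming cells with or without Prmt5, the gene of a type II arginine methyltransferase. Ter119pos KO and Ter119neg KO cells came from Vav-cre;PRMT5fl/fl fetal livers, and Ter119pos WT and Ter119neg WT cells from PRMT5fl/fl fetal livers, all at stage E14.5 and with 2 libraries per group. LK cells are by common usage bone marrow progenitors without lineage markers and with Kit. LK KO cells came from Mx1-cre;PRMT5fl/fl mice and LK WT cells from PRMT5fl/fl mice, with 3 libraries per group. Every group thus carried the floxed Prmt5 alleles, and no WT group carried a Cre. Cells of both LK genotypes were collected 7 days after poly(I:C). Each of mice 1 and 2 supplied both KO fractions and mouse 4 library B of both WT fractions, whereas library A came from mouse 3 in Ter119neg WT and from mouse 5 in Ter119pos WT. The labels name no mice for LK, so the LK p-values measure the spread between libraries, which may be technical.

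Interferons of types I and III act through paired receptors and the kinases Jak1 and Tyk2, which activate Stat2. Stat2 and Irf9 are parts of the factor that binds the interferon-stimulated response element in the promoters of many of the genes described here, while interferon gamma acts mainly at gamma-activated sites. Poly(I:C) is a synthetic RNA duplex that mimics virus and makes mice produce interferon, and the Mx1 promoter that drives the LK Cre is itself an interferon target, so poly(I:C) is what starts the deletion. Vav-cre is active in blood cells from early development without such a stimulus. In the blood system interferon is known to push stem cells into division and macrophages into an activated state.

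Levels are TMM-normalised CPM, each gene's share of a library's counts scaled to a common total. Total counts ran between 19514550 and 30976961 per library. Prmt5 stood at 11.8, 12.3 and 10.6 CPM in LK KO, against 110, 63.1 and 69.8 CPM in LK WT. It stood at 4.51 and 4.26 CPM in Ter119neg KO, against 52.3 and 51.8 CPM in Ter119neg WT, and at 3.64 and 4.92 CPM in Ter119pos KO, against 13.8 and 17.7 CPM in Ter119pos WT. The labelled fractions matched their markers, the erythroid haem synthesis gene Alas2 being at 2727 to 4013 CPM in Ter119pos libraries and at 4.25 to 15.3 CPM in Ter119neg libraries, and the progenitor receptor Kit at 209 to 388 CPM in LK libraries. Ribosomal RNA genes took 26.7% of the counts in LK KO library B and 19.5% in LK WT library B, and no more than 0.211% in the other LK libraries. LK and fetal liver CPM were normalised separately, in 1 table each.

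Among the fetal libraries 1 stood apart in the genes of interest, Ter119pos WT library A, the only library of mouse 5. Summed over the 43 genes it held 590.5 CPM, against 289.4 CPM in Ter119pos WT library B, while the Ter119pos KO libraries held 227 and 270.6 CPM. Of 41 members compared, 40 were higher in Ter119pos WT library A than in library B, and 32 were more than 1.5 times as high, which held for 14.4% of 15306 genes. In the other fetal groups, members with library A over 1.5 times library B numbered 3 in Ter119pos KO, 1 in Ter119neg KO and 0 in Ter119neg WT. This held for 11.8%, 8.12% and 5.68% of all genes. Library B was the higher for 28 of 40 members in Ter119pos KO and for 34 of 41 in each Ter119neg group. Over all genes library A was the higher for 46.9%, 50.5% and 51.7%, in the order Ter119pos KO, Ter119neg KO and Ter119neg WT. The Ter119pos results are also given without Ter119pos WT library A.

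The genes were far from evenly expressed across the groups. Per kilobase of the longest annotated transcript, Ifitm2, a membrane protein that blocks virus entry, was the highest member in LK KO at 289, in LK WT at 571, in Ter119neg KO at 40.3 and in Ter119neg WT at 30.1 CPM per kilobase. In Ter119pos KO the highest was Ifi35, a regulator of the antiviral response, at 39.1 CPM per kilobase. In Ter119pos WT it was Isg20, an exonuclease that degrades RNA, at 36.2 CPM per kilobase. Ifi44 and Mx2 were among the 5 lowest members in all 6 groups, where Ifi44 ran from 0.00533 to 0.29 CPM per kilobase. Summed CPM over the 43 genes ran from 1243 to 1435 in LK KO and from 1371 to 2492 in LK WT. In fetal cells it ran from 198 to 217 in Ter119neg KO and from 205 to 231 in Ter119neg WT. The 2492 CPM belonged to LK WT library B, the LK WT library rich in ribosomal RNA, against 1371 and 1387 CPM in libraries A and C. Ifitm2 stood there at 790.5 CPM, against 185.1 and 147 CPM in libraries A and C. Other members, such as Eif2ak2 at 13.86 CPM against 24.57 and 56.56 CPM, were lowest there. The LK and fetal sums come from separately normalised tables and from mice of different treatment, and were not compared by a test.

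**Figure D1:**
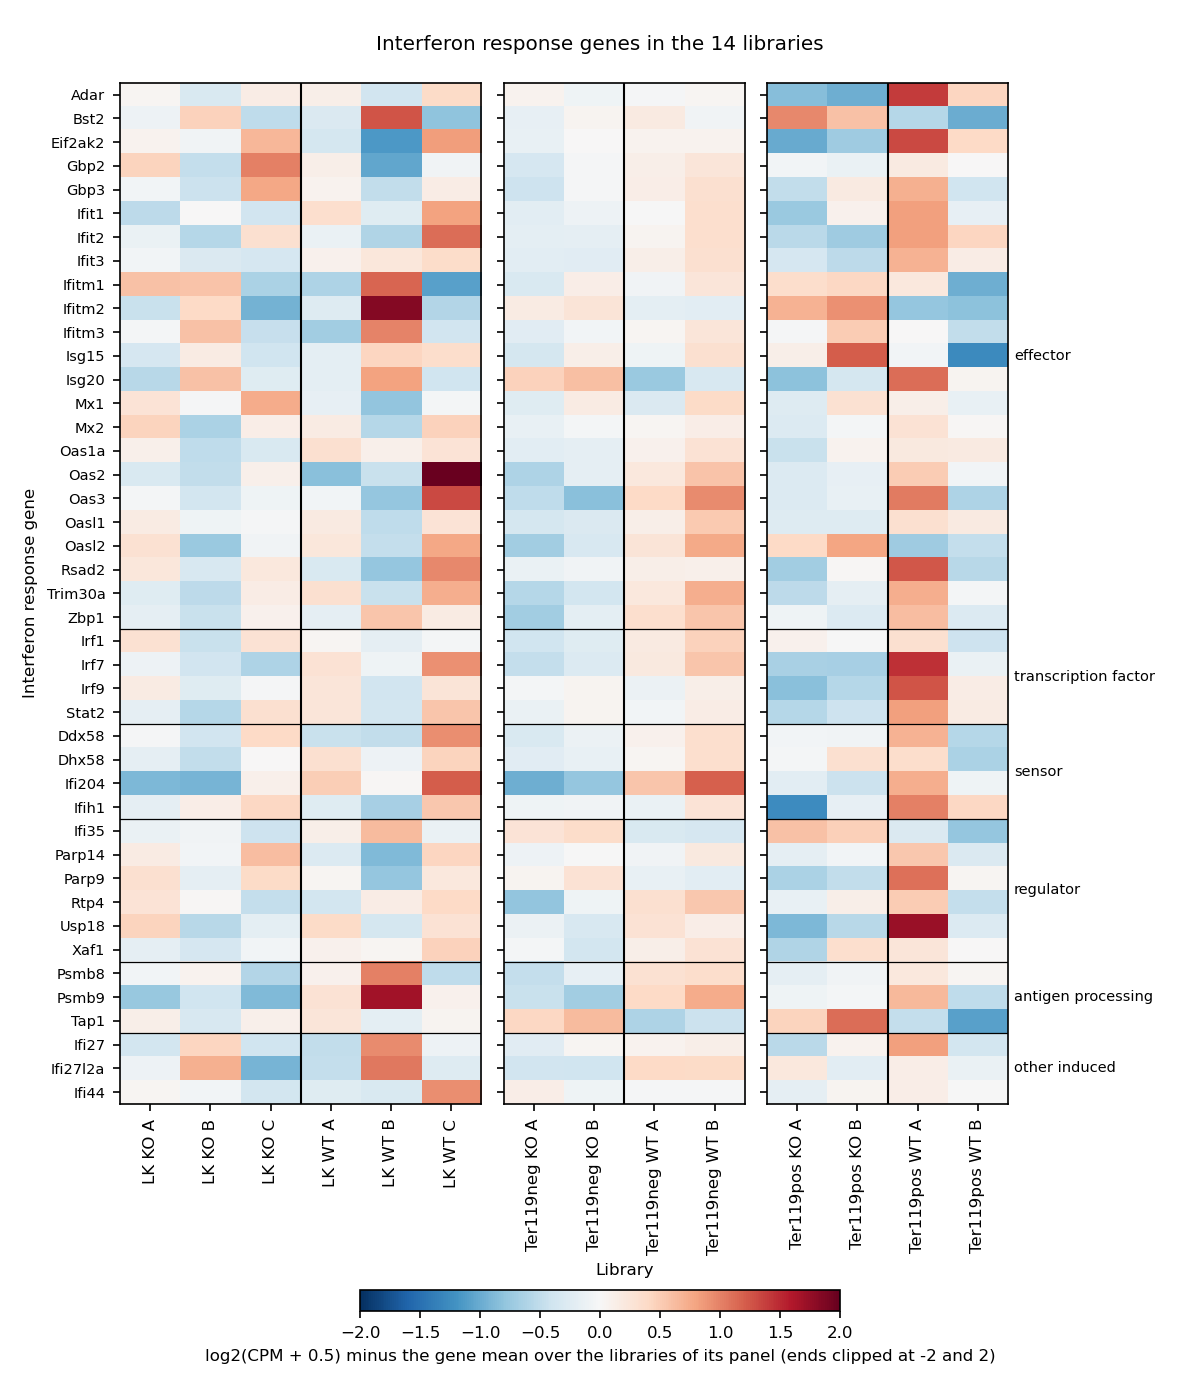
Level of each of the 43 genes (rows, grouped by role) in each of the 14 libraries (columns), as log2(CPM + 0.5) minus the gene's mean over the libraries of the same panel. Most genes are at their highest of the 4 Ter119pos libraries in Ter119pos WT library A, whose members summed to 590.5 CPM.

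Promoters are shown for members that the results turn on, from RefSeq (GRCm38.p6), which gave a window of 250 bases before to 50 bases after the start for 31 of the 43 genes. The response element core was searched on both strands as GAAANNGAAA, in which N is any base, so that neighbouring matches can overlap. It was found in 16 of the 31 genes (51.6%), against 1079 of all 27025 genes with a window (3.99%). The gamma-activated site TTCNNNGAA, which reads the same on both strands, was found in 10 of the 31 (32.3%), against 2582 of 27025 (9.55%). The 6 stretches below are from called genes with a response element core, taken in order of p over the KO comparisons, with the core in capitals and each sequence on the gene's own strand. They are Ifitm2 (chr7:140955943-140956062, minus strand), Eif2ak2 (chr17:78882543-78882609, minus strand), Bst2 (chr8:71537532-71537657, minus strand), Ifih1 (chr2:62646206-62646235, minus strand), Stat2 (chr10:128270248-128270340, plus strand) and Trim30a (chr7:104465165-104465284, minus strand).
Ifitm2: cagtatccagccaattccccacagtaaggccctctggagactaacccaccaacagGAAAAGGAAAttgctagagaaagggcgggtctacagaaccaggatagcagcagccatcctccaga
Eif2ak2: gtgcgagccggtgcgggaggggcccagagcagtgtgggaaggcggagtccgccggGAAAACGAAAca
Bst2: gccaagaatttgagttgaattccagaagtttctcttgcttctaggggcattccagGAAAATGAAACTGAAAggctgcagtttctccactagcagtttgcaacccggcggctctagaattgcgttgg
Ifih1: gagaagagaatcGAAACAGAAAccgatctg
Stat2: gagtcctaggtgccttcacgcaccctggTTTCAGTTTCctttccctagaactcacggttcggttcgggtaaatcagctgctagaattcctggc
Trim30a: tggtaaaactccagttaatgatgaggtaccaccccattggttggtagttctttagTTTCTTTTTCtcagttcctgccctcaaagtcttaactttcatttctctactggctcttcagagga
Of these 6 genes, Ifitm2 and Bst2 were higher in Ter119pos KO, Eif2ak2, Ifih1 and Stat2 lower in Ter119pos KO, and Trim30a lower in Ter119neg KO, and genes with the core thus stood on both sides. The core lies 46 bases before the start in Ifitm2, 130 and 124 bases before it in the overlapping pair of Bst2, 222 in Stat2 and 36 in Trim30a, and after the start in Eif2ak2 and Ifih1.

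In LK cells none of the 42 genes tested was called between KO and WT, higher or lower, by edgeR's quasi-likelihood test with Benjamini-Hochberg adjustment. Of all 13771 genes tested, 1.15% were called higher and 0.661% lower. At an unadjusted p under 0.05 by edgeR stood 3 members, the proteasome subunit gene Psmb9, the DNA sensor gene Ifi204 and Irf7, the factor that amplifies interferon production. Of all 13771 genes tested, 2404 stood there, which is a larger share. The median log2 fold change of the 42 was -0.28, against -0.09 over all genes tested. By DESeq2 1 member was called, lower, and 0 higher (3.93% of all genes higher and 3.9% lower), and by limma-voom 0 (1.39% and 0.806%). All 6 LK libraries held counts of all 43 genes 7 days after poly(I:C), but no library without poly(I:C) was analysed here, so what it induced cannot be told apart from the baseline.

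Psmb9, a subunit of the immunoproteasome that cuts peptides for antigen presentation, stood at 49.6, 63.8 and 45.6 CPM in LK KO, against 103, 272 and 90.3 CPM in LK WT. The groups did not overlap. Its log2 fold change was -1.55 (SE 0.45, adjusted p = 0.141 by edgeR, and -1.54 with adjusted p = 0.0217 by DESeq2). Ifi204 stood at 0.493, 0.468 and 1.48 CPM in LK KO, against 2.08, 1.38 and 3.76 CPM in LK WT, with KO library C just above WT library B. Irf7 stood at 3.61, 2.88 and 2.39 CPM in LK KO, against 4.92, 3.65 and 7.81 CPM in LK WT, without overlap (-0.89, SE 0.36, adjusted p = 0.269 by edgeR). Oas1a, Xaf1 and the untested Ifit3 were likewise lower in every KO than in every WT library. Mx1, the gene of the antiviral GTPase whose promoter drives the Cre, was the 1 member higher in every KO library. It stood at 3.39, 2.68 and 4.92 CPM in LK KO, against 2.38, 1.38 and 2.65 CPM in LK WT (0.76, SE 0.38, adjusted p = 0.363 by edgeR). So 1 tested member was above and 4 below without overlap, of 42, where over all genes 11.3% were above and 12.9% below.

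LK libraries of the same letter deviated together, with correlations of 0.604, 0.719 and 0.730, and with the letter as a block 1 member was called higher and 2 lower in LK KO, against 9.9% and 12.8% of all genes. The one higher was Gbp2, a guanylate-binding protein that attacks pathogen vacuoles, at 13.6, 6.89 and 20.2 CPM in LK KO, against 10.7, 4.54 and 9.36 CPM in LK WT. Each KO library exceeded the WT library of its letter (0.69, adjusted p = 0.0494 by edgeR with the block). The members called lower with the block were Psmb9 (-1.37, adjusted p = 0.00919 by edgeR) and Ifi204 (-1.64, adjusted p = 0.0131 by edgeR). Markers of several cell types also differed between the LK genotypes. The 18 granulocyte and monocyte markers summed to 10130 to 18490 CPM in LK KO, against 25800 to 54850 CPM in LK WT. Of the 18, 2 were called lower, and 16 with the block. All 10 stem and progenitor markers had a positive log2 fold change, with 1 called higher, and 4 with the block. Of 7 tested platelet and megakaryocyte markers 2 were called higher and 0 lower. Of 10 tested macrophage markers Adgre1 and Ctss were lower (-2.07 and -1.56), and 4 were lower and 1 higher with the block, the list summing to 141 to 266 CPM in LK KO, against 294 to 364 CPM in LK WT. The defining granule genes Mpo and Elane were abundant in every LK library, at 5292 to 7923 and 878 to 1491 CPM in LK KO, against 10480 to 15860 and 2044 to 11270 CPM in LK WT. The part of these cells in the result was not tested.

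**Figure D2:**
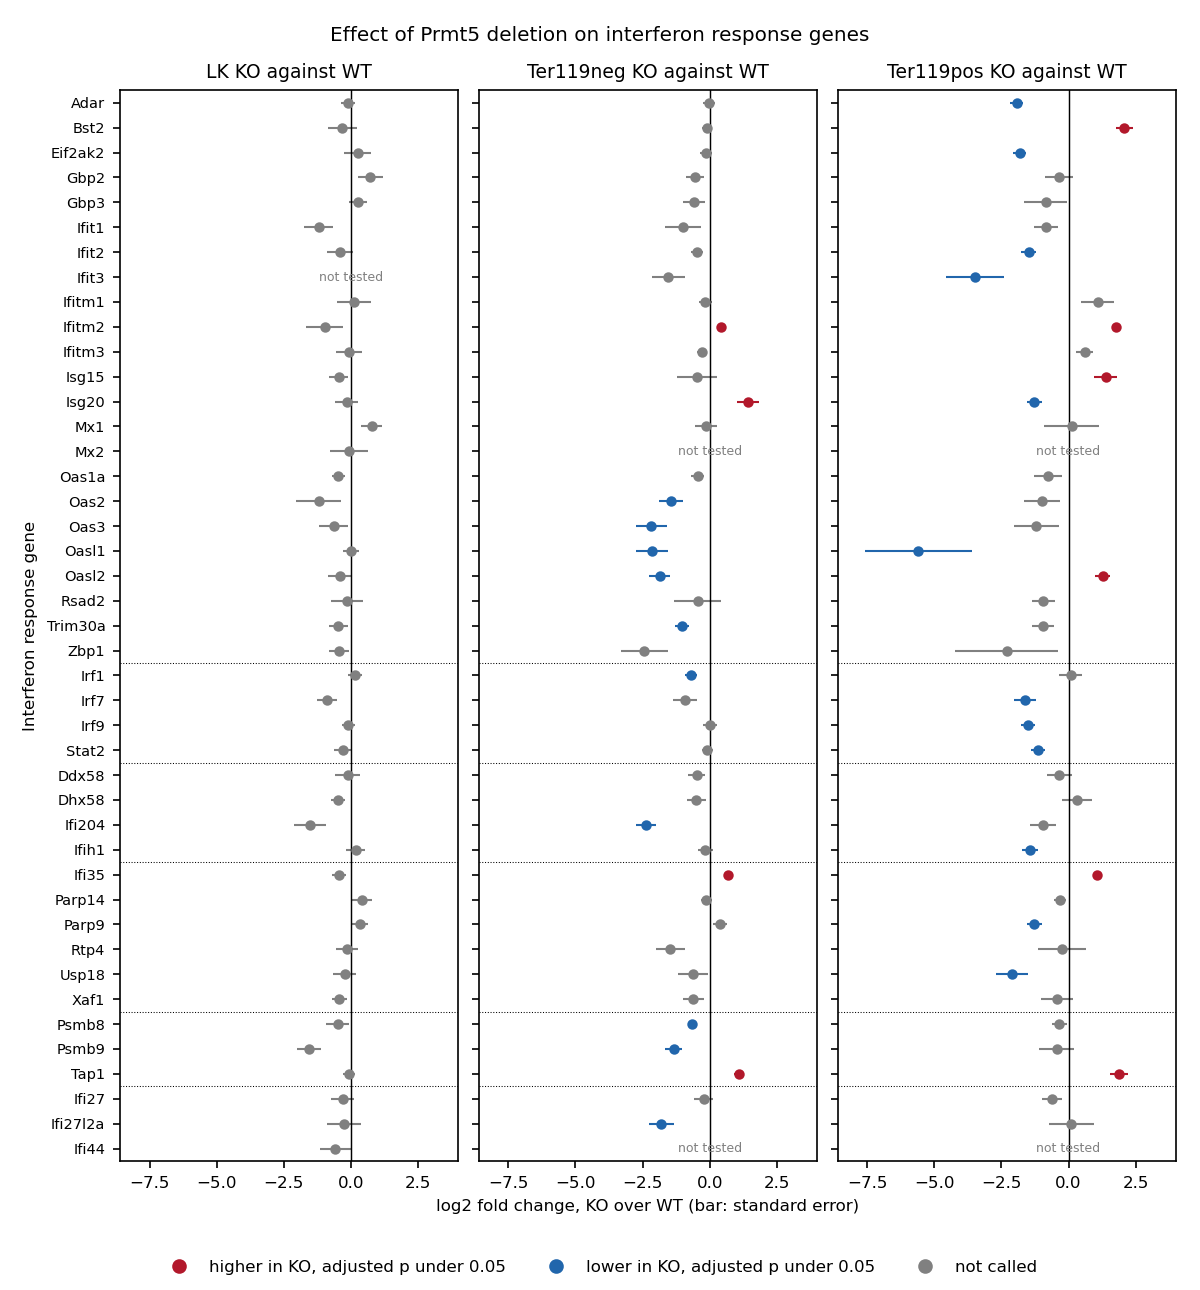
Log2 fold change of KO over WT for each gene (rows, grouped by role) in LK, Ter119neg and Ter119pos cells, with bars of 1 standard error and colour for genes with an adjusted p under 0.05. No gene is coloured in LK, 14 are in Ter119neg and 18 in Ter119pos.

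In Ter119neg cells, the fetal liver fraction without the erythroid surface antigen, 10 of 41 tested genes were lower and 4 higher in KO, or 24.4% and 9.76%, where 9.55% and 9.57% of all 15566 genes were called. The lower ones were Oas2, Oas3, Oasl1 and Oasl2 of the oligoadenylate synthetase family, which senses viral RNA, with Ifi204, Trim30a, Irf1, Ifi27l2a and the proteasome genes Psmb8 and Psmb9. The higher ones were the peptide transporter gene Tap1, Ifitm2, Isg20 and Ifi35. The median log2 fold change was -0.49, against 0.01 over all genes tested. Of the 41, 27 were lower in both KO than in both WT libraries and 5 higher, against 31% and 31.5% of all genes. In sorted bulk RNA, fewer cells of a type and less RNA per cell cannot be told apart.

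Gene positions are those of GENCODE M21 on GRCm38. Among the effectors, Oasl2 (chr5:114896936-114912234, plus strand) stood at 0.193 and 0.399 CPM in Ter119neg KO, against 0.837 and 1.38 CPM in Ter119neg WT (log2 fold change -1.87, SE 0.39, adjusted p = 0.00617 by edgeR). Oas3 stood at 0.495 and 0.293 CPM in Ter119neg KO, against 1.36 and 2.24 CPM in Ter119neg WT (-2.18, SE 0.58, adjusted p = 0.0207 by edgeR). Oas2 and Oasl1 were also lower (-1.43 and -2.15, adjusted p = 0.0435 and 0.0278 by edgeR), and Oas1a, at 2.45 and 2.5 CPM in Ter119neg KO, against 3.11 and 3.67 CPM in Ter119neg WT, was not called. These 5 genes were lower in both KO libraries, 4 of them past the threshold, and all at low levels. Oas1c and Oas1b, which are not among the 43, were not called. Oas1c stood at 0.412 and 0.612 CPM in Ter119neg KO, against 0.234 and 0.286 CPM in Ter119neg WT, and Oas1b overlapped, at 0.275 and 0.505 CPM in KO, against 0.311 and 0.334 CPM in WT. Trim30a, a ubiquitin ligase of the innate response, stood at 3.27 and 3.83 CPM in Ter119neg KO, against 5.93 and 8.71 CPM in Ter119neg WT (-1.04, SE 0.25, adjusted p = 0.0131 by edgeR). The called effectors that were higher were Ifitm2, at 25.6 and 27.3 CPM in Ter119neg KO, against 19.9 and 19.6 CPM in Ter119neg WT, and Isg20, at 2.34 and 2.63 CPM in Ter119neg KO, against 0.739 and 1.15 CPM in Ter119neg WT. Isg20 was the largest rise of any member here (1.42, SE 0.40, adjusted p = 0.027 by edgeR).

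Ifi204 (chr1:173747293-173766943, minus strand), a DNA sensor of the PYHIN family, had the smallest adjusted p of the members in Ter119neg cells. It stood at 0.605 and 0.771 CPM in Ter119neg KO, against 2.7 and 4.51 CPM in Ter119neg WT (-2.37, SE 0.36, adjusted p = 0.000777 by edgeR). Of the transcription factors Irf1, which acts downstream of interferon gamma, was called lower, at 3.93 and 4.39 CPM in Ter119neg KO, against 6.11 and 7.47 CPM in Ter119neg WT. Irf9 and Stat2 of the response factor were not called, Irf9 being at 10.5 and 11.3 CPM in Ter119neg KO, against 9.94 and 11.8 CPM in Ter119neg WT, and Stat2 at 4.89 and 5.64 CPM in Ter119neg KO, against 5.2 and 6.06 CPM in Ter119neg WT. The 2 groups overlapped for both. Ifi27l2a was lower (-1.81, adjusted p = 0.0181 by edgeR) and the regulator Ifi35 higher (0.66, adjusted p = 0.00645 by edgeR).

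The antigen processing genes split. Tap1, a subunit of the pump that carries peptides into the endoplasmic reticulum, stood at 16.7 and 19.4 CPM in Ter119neg KO, against 7.96 and 9.06 CPM in Ter119neg WT (1.09, SE 0.19, adjusted p = 0.00191 by edgeR). Psmb9 stood at 2.06 and 1.65 CPM in Ter119neg KO, against 4.12 and 5.34 CPM in Ter119neg WT (-1.35, SE 0.32, adjusted p = 0.0119 by edgeR). Psmb8, another immunoproteasome subunit, stood at 9.51 and 11.9 CPM in Ter119neg KO, against 16.7 and 17.2 CPM in Ter119neg WT (-0.66, SE 0.14, adjusted p = 0.00547 by edgeR). Tap1 and Psmb9 therefore differed in opposite directions although they are read from the same stretch of chromosome 17, away from each other, with RefSeq starts 226 bases apart. The annotated gene bounds on GRCm38 overlap by 212 bases, at chr17:34181987-34187764 for Psmb9 on the minus strand and chr17:34187553-34197225 for Tap1 on the plus strand. The library kit keeps strand, but whether the counting used it is not given in the sources used here, so reads of the overlap may be shared. The stretch common to both promoter windows (chr17:34187306-34187580, plus strand) is shown because the 2 genes share it, a choice made after their values were seen, with the RefSeq start base of Psmb9 (first capital) and of Tap1 (second capital) marked.
Tap1 and Psmb9: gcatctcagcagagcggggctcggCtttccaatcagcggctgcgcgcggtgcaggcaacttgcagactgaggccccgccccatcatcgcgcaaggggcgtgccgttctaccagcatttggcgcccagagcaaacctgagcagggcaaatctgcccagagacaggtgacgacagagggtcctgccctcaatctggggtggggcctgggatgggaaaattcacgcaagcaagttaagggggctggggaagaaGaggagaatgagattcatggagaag
Neither motif searched above is found in the Tap1 or the Psmb9 window.

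Macrophage markers moved with the lower genes in Ter119neg cells. All 16 tested markers of 17 were lower in Ter119neg KO, with sums of 44.8 and 40.7 CPM in Ter119neg KO, against 170 and 184 CPM in Ter119neg WT, and all 17 held counts in each of these libraries. The defining marker Adgre1 stood at 3.24 and 3.54 CPM in Ter119neg KO, against 16.7 and 18.7 CPM in Ter119neg WT, and C1qa at 0.687 and 0.692 CPM in KO, against 5.72 and 5.49 CPM in WT. Granulocyte and monocyte markers were lower in 8 of 18 cases, with sums of 1033 and 1455 CPM in Ter119neg KO, against 1850 and 1954 CPM in Ter119neg WT. Of the PYHIN family, Ifi203 (-1.07) and Ifi205 (-1.73 on the log2 scale) were lower in the same fraction, as Ifi204 was. Ifi205 was chosen after its value was seen, and the other family members on the lists are not given here. Erythroid markers went the other way, with 7 of 13 higher and 1 lower and with sums of 1277 and 1893 CPM in Ter119neg KO, against 1033 and 951.2 CPM in Ter119neg WT. The part of these cells in the lower and the higher genes was not tested. Ifi204 and Tap1 were the 2 of 14 called members that kept their call under every alternative run. Without Ter119neg KO library A 3 members were lower and 2 higher (5.47% and 5.6% of all genes), and without Ter119neg WT library B likewise 3 and 2 (5.06% and 4.44%).

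In Ter119pos cells, the maturing erythroid fraction, 12 of 41 tested genes were lower and 6 higher in KO, or 29.3% and 14.6%, where 29.3% and 24.8% of all 15566 genes were called. The counts were thus at the share of all genes or under it. The lower genes were led by Adar, Eif2ak2 and Irf9 and held 3 of the 4 transcription factors, and the higher ones by Ifitm2, Ifi35, Bst2 and Tap1. The median log2 fold change was -0.76, against -0.04 over all genes tested. Of the 41, 18 were lower in both KO than in both WT libraries and 7 higher, against 39.8% and 35.8% of all genes. Without Ter119pos WT library A 8 were lower and 7 higher (23.4% and 19.8% of all genes), and without WT library B 19 were lower and 5 higher (26.1% and 21.5%). Irf7, Usp18, Ifit3 and Oasl1 lost the call without library A, and Ifitm1 gained it.

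Adar (chr3:89715022-89753446, plus strand), the enzyme that edits adenosine in duplex RNA, stood at 26 and 23.7 CPM in Ter119pos KO, against 126 and 64.1 CPM in Ter119pos WT (-1.93, SE 0.24, adjusted p = 2.15e-05 by edgeR). Eif2ak2 (chr17:78852564-78882573, minus strand), the RNA-activated kinase that halts translation, stood at 10.8 and 13.3 CPM in Ter119pos KO, against 55.7 and 29.1 CPM in Ter119pos WT (-1.82, SE 0.25, adjusted p = 4.61e-05 by edgeR). Both groups stood clear of each other even from WT library B, and without WT library A the log2 fold changes were -1.37 and -1.29, both still called. Ifih1, the sensor of long RNA duplexes, stood at 4.13 and 9.32 CPM in Ter119pos KO, against 21.8 and 14.2 CPM in Ter119pos WT (-1.45, -1.11 without library A). Ifit2, which binds viral RNA, stood at 1.82 and 1.55 CPM in Ter119pos KO, against 5.47 and 4.06 CPM in Ter119pos WT (-1.49, -1.26 without library A). Ddx58 and Dhx58, sensors of the family of Ifih1, were not called (-0.34 and 0.32, adjusted p = 0.566 and 0.653 by edgeR).

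Of the 4 transcription factors, 3 were called lower as well. Irf9 (chr14:55603571-55610030, plus strand), the DNA-binding subunit of the response factor, stood at 25.8 and 30.8 CPM in Ter119pos KO, against 111 and 51.4 CPM in Ter119pos WT (-1.52, SE 0.27, adjusted p = 0.000367 by edgeR). Stat2 stood at 2.8 and 3.19 CPM in Ter119pos KO, against 8.12 and 5 CPM in Ter119pos WT (-1.13, SE 0.26, adjusted p = 0.00245 by edgeR). Both were thus lower in each KO than in either WT library, and without WT library A they stood at -0.87 and -0.75 and kept the call. Irf7 stood at 4.97 and 4.92 CPM in Ter119pos KO, against 23.1 and 7.36 CPM in Ter119pos WT. Its log2 fold change was -1.62 with library A and -0.58 without it (adjusted p = 0.00501 and 0.0878 by edgeR). Irf1 was at about 1 CPM in both genotypes and was not called.

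Of the other genes called lower, Isg20 stood at 13.7 and 19.1 CPM in Ter119pos KO, against 53.5 and 25.4 CPM in Ter119pos WT (-1.28, -0.65 without library A). Parp9, of the ADP-ribosyltransferase family, which works with the ligase Dtx3l, stood at 10.2 and 11.3 CPM in Ter119pos KO, against 35.2 and 16.6 CPM in Ter119pos WT (-1.27, -0.64 without library A), and Dtx3l itself at 7.21 and 6.99 CPM in KO, against 25.9 and 14.54 CPM in WT (-1.51, -1.04 without library A). All 3 genes stood lower in both KO libraries than in either WT library. Usp18 is the protease that removes Isg15 from proteins and damps receptor signalling. It stood at 1.19 and 1.64 CPM in Ter119pos KO, against 9.92 and 2.12 CPM in Ter119pos WT. Its log2 fold change was -2.10, and -0.60 without WT library A. The call was lost without that library, without KO library A and by limma-voom. Ifit3 was at 0.07 and 0 CPM in Ter119pos KO, against 0.661 and 0.294 CPM in Ter119pos WT. Oasl1 had no count in either Ter119pos KO library and 0.241 and 0.176 CPM in Ter119pos WT, 7 counts in all, which makes it at least 1.8-fold lower in KO against a floor of 3 counts over the KO group. At that depth little can be said of either gene.

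Other members went the opposite way. Ifitm2 stood at 7.84 and 9.23 CPM in Ter119pos KO, against 2.52 and 2.41 CPM in Ter119pos WT (1.78, SE 0.17, adjusted p = 2.28e-06 by edgeR). Bst2, the tether that holds budding virus at the cell surface, stood at 3.71 and 2.76 CPM in Ter119pos KO, against 0.962 and 0.588 CPM in Ter119pos WT (2.07, SE 0.32, adjusted p = 0.000135 by edgeR). Tap1 stood at 3.5 and 5.87 CPM in Ter119pos KO, against 1.62 and 0.883 CPM in Ter119pos WT (1.88, SE 0.32, adjusted p = 0.000302 by edgeR). None of the 3 overlapped, and without WT library A they stood at 1.81, 2.46 and 2.37. Ifi35 stood at 55.5 and 50.9 CPM in Ter119pos KO, against 29.9 and 21.2 CPM in Ter119pos WT (1.06, SE 0.14, adjusted p = 4.7e-05 by edgeR), so that it was higher in KO in both fractions, and at 1.32 without WT library A. Oasl2 stood at 10.1 and 13.5 CPM in Ter119pos KO, against 4.45 and 5.3 CPM in Ter119pos WT (1.27, SE 0.26, adjusted p = 0.00135 by edgeR, and 1.14 without WT library A). Isg15, an interferon-induced ubiquitin-like protein that is attached to other proteins, stood at 8.68 and 19.15 CPM in Ter119pos KO, against 7.64 and 3 CPM in Ter119pos WT (1.38, SE 0.42, adjusted p = 0.0151 by edgeR). Its KO library A was barely above WT library A, and the fold change was 2.19 without WT library A and 0.85, no longer called, without WT library B. Psmb9, the neighbour of Tap1, was at 0.49 and 0.518 CPM in Ter119pos KO, against 1.14 and 0.235 CPM in Ter119pos WT, and overlapped.

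**Figure D3:**
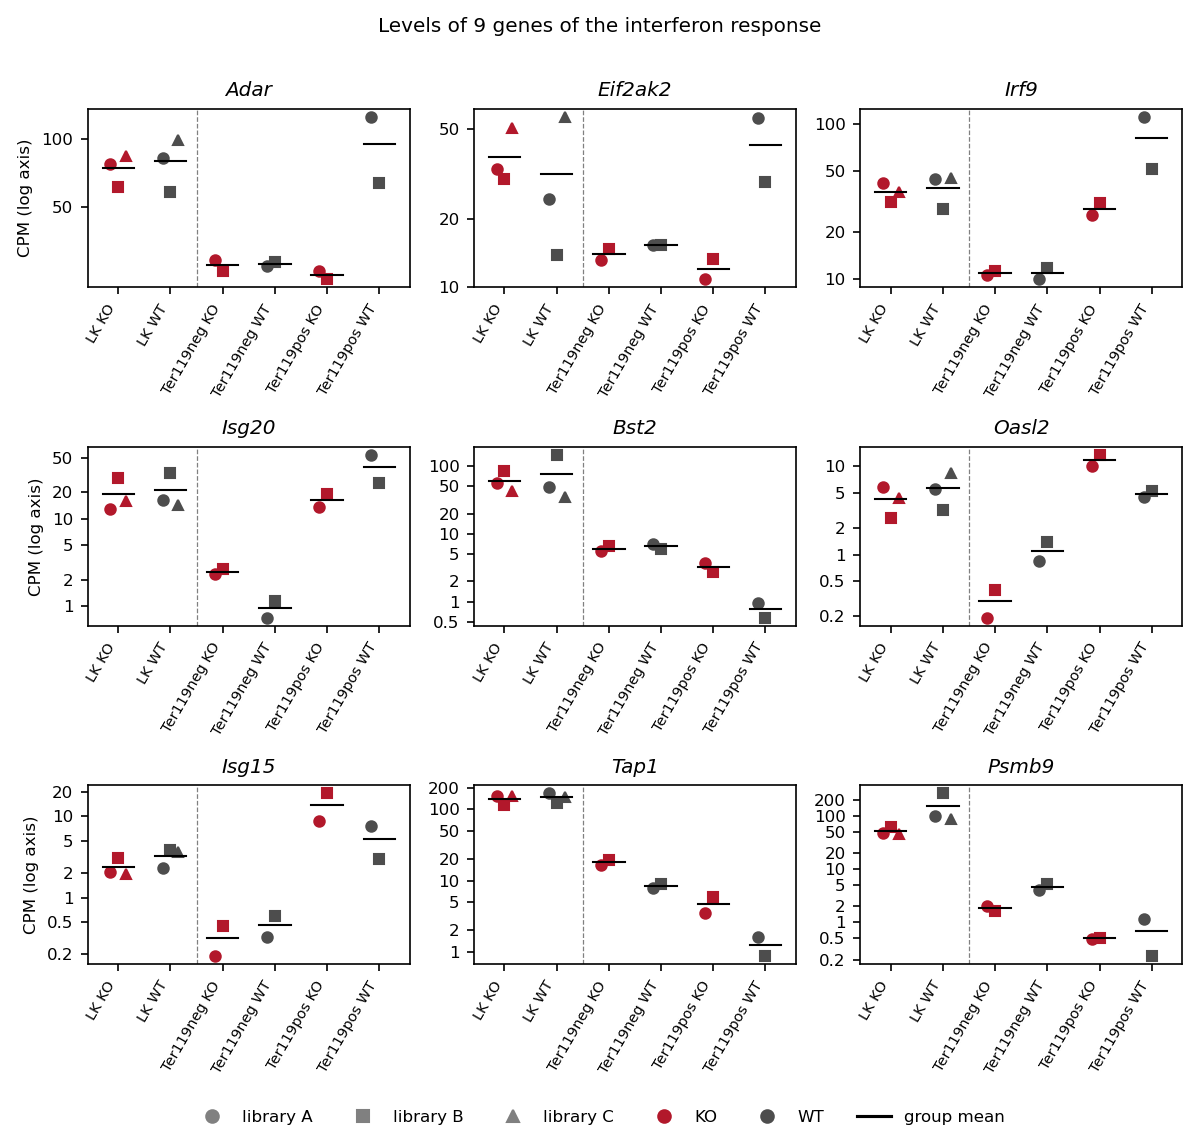
CPM (log axis) of 9 genes in every library, with KO left of WT, marker shape for the library letter and a line at the group mean. Adar, Eif2ak2, Irf9 and Isg20 are lower in both Ter119pos KO libraries than in either Ter119pos WT library, Bst2, Oasl2, Isg15 and Tap1 higher, and Ter119pos WT library A lies above library B in 8 of the 9 panels. LK values were normalised separately from fetal values.

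Markers of several other cell types differed between the genotypes in Ter119pos cells as well. Of 16 tested macrophage markers 4 were lower and 1 higher in Ter119pos KO, with sums of 75.3 and 96.5 CPM in KO, against 117 and 75.3 CPM in WT, and without WT library A 1 was lower and 3 were higher. Granulocyte and monocyte markers were lower in 8 of 18 cases, with sums of 32.7 and 88.3 CPM in Ter119pos KO, against 197 and 101 CPM in Ter119pos WT, and in 5 cases without WT library A. Platelet and megakaryocyte markers were higher in 6 of 8 cases and lower in 2, with sums of 40.4 and 40.8 CPM in Ter119pos KO, against 35.2 and 37.1 CPM in Ter119pos WT. Liver, endothelial and stromal markers were higher in 6 of 10 cases and lower in 1, among them the collagen gene Col1a2 (3.95). Their sums were 64.8 and 104.6 CPM in Ter119pos KO, against 44.9 and 31.7 CPM in Ter119pos WT. Without WT library A the first list gave 5 higher and 2 lower and the second 6 higher and 0 lower. The 13 erythroid markers summed to 337900 and 441600 CPM in Ter119pos KO, against 343600 and 307900 CPM in Ter119pos WT. Of the 13, 5 were called lower and 1 higher in KO, where 29.3% and 24.8% of all genes were called. The membrane protein gene Ermap and the anion exchanger gene Slc4a1 were lower (-1.98 and -1.48). Klf1 went the other way, at 455.5 to 472.5 CPM in Ter119pos KO, against 275.2 to 311.4 CPM in Ter119pos WT. The part of these cells and of erythroid stage in the result was not tested.

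The effect of Prmt5 deletion differed between the fractions for 11 of 41 genes, 3 with a higher and 8 with a lower effect in Ter119pos than in Ter119neg cells, where 19.3% and 22.4% of all genes differed. The largest difference was that of Oasl2, whose log2 fold change was 1.27 in Ter119pos and -1.87 in Ter119neg cells (difference 3.13, SE 0.47, adjusted p = 0.000262 by edgeR). Isg20 went the other way, at -1.28 in Ter119pos and 1.42 in Ter119neg cells (difference -2.69, SE 0.49, adjusted p = 0.000917 by edgeR). These 2 were called in both fractions, in opposite directions. Bst2 (difference 2.19) and Ifitm2 (1.36) had the higher effect in Ter119pos cells. Adar (-1.92), Eif2ak2 (-1.68), Parp9 (-1.66), Irf9 (-1.53), Ifih1 (-1.27), Stat2 (-1.04) and Ifit2 (-1.03) had the lower one, and in Ter119neg cells each of these 7 was not called. Without Ter119pos WT library A 12 genes had a higher and 5 a lower effect (15.6% and 17.5% of all genes), with Ifit2, Stat2 and Ifih1 no longer called. With mouse as a block, in which WT rests on mouse 4 alone, they were 14 and 6 (18.6% and 21.6% of all genes), with Ifit2 and Stat2 again not called.

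**Figure D4:**
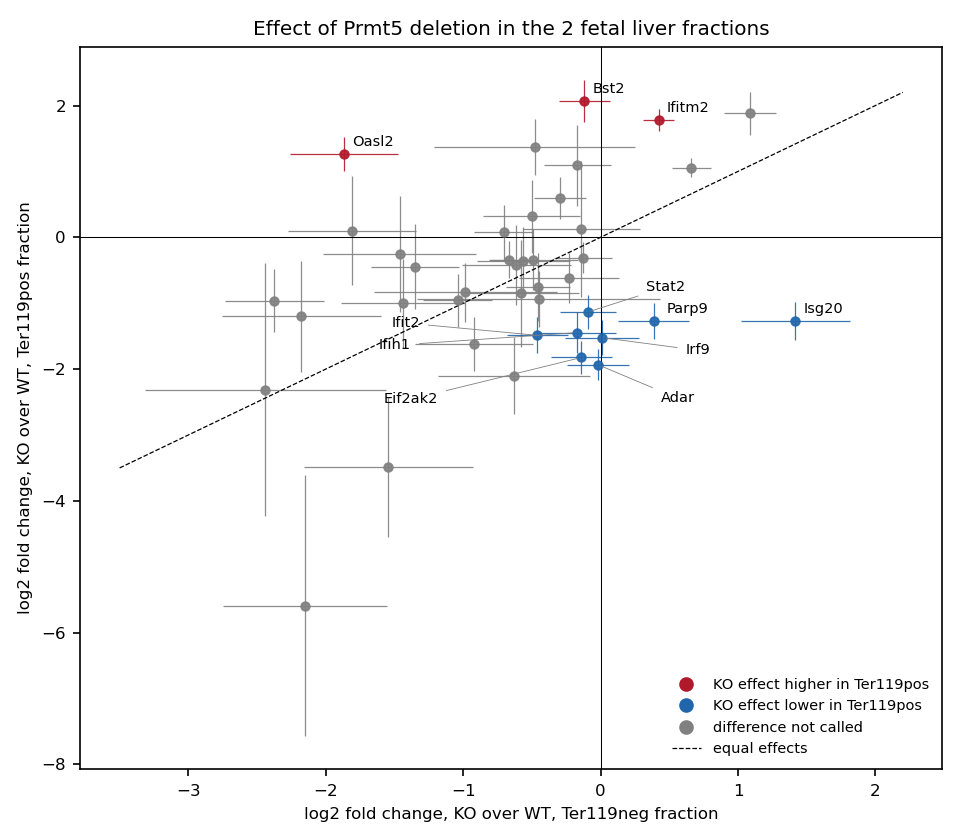
Log2 fold change of KO over WT in Ter119pos (vertical) against Ter119neg cells (horizontal) for the 41 genes tested, with bars of 1 standard error and names for genes whose effects differ at an adjusted p under 0.05. Oasl2 and Isg20 lie in opposite corners, and a group with Adar, Eif2ak2 and Irf9 lies near 0 on the horizontal axis and below -1 on the vertical one. The KO libraries of both fractions come from the same mice.

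The fractions themselves were also compared within each genotype. In KO 9 genes were higher and 13 lower in Ter119pos than in Ter119neg cells, or 22% and 31.7% of 41, where 30.3% and 32.3% of all genes were called. In WT 16 were higher and 16 lower, or 39% each, where 35.9% and 40.4% of all genes were called, and 12 and 19 without Ter119pos WT library A (31.7% and 34% of all genes). These shares lie near those of all genes or under them. Both comparisons use libraries that the KO comparisons above also use. Rsad2, the antiviral enzyme viperin, stood at 9.94 and 16.65 CPM in Ter119pos KO and at 0.33 and 0.372 CPM in Ter119neg KO, and at 39.5 and 11 CPM in Ter119pos WT and 0.486 and 0.477 CPM in Ter119neg WT (5.21 in KO and 5.70 in WT). Isg15, Oasl2, Isg20, Ifit1, Irf7, Irf9, Ifi35 and Ifi27 were also higher in Ter119pos cells of both genotypes. Psmb8 stood at 1.26 and 1.38 CPM in Ter119pos KO and at 9.51 and 11.9 CPM in Ter119neg KO, and at 1.8 and 1.53 CPM in Ter119pos WT and 16.7 and 17.2 CPM in Ter119neg WT (-3.02 in KO and -3.34 in WT). Psmb9, Tap1, Irf1, the 3 Ifitm genes, Bst2, Mx1, Oas1a, Trim30a and Gbp3 were lower in Ter119pos cells of both genotypes as well. Adar, Eif2ak2, Ifih1, Parp9, Ifit2, Parp14 and Usp18 were higher in Ter119pos than in Ter119neg cells in WT and not called in KO. In WT, Ifit2, Parp14, Usp18 and Ifi27 were not called with mouse as a block or without Ter119pos WT library A, and Parp14 stood at -0.09 with the block. The erythroid libraries were scaled by TMM factors of 0.482 and 0.408 in Ter119pos KO and 0.792 and 0.855 in Ter119pos WT. Scaling on protein-coding genes without globin genes raised the median log2 difference of all genes between fractions by 0.15 in KO and 0.11 in WT, and removing the trend with transcript length raised it by 0.22 and 0.19.

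Genes upstream of the response were read from lists of pathway genes. None of the 21 interferon genes could be tested in any comparison, the sum over all of them being at most 0.302 CPM in any library. Of 11 receptor, kinase and Stat genes none was called in LK cells. With the letter block 2 were lower (Tyk2 at -0.76 and Ifngr2 at -0.69), where 12.8% of all genes were lower. In Ter119neg KO 6 were lower and 1 higher, or 54.5% and 9.09%, where 9.55% and 9.57% of all genes were called. Ifngr1, a chain of the interferon gamma receptor, stood at 25 and 26.3 CPM in Ter119neg KO, against 40.2 and 44.6 CPM in Ter119neg WT (-0.72, SE 0.11, adjusted p = 0.000626 by edgeR), and Tyk2 at 10.8 and 10.1 CPM in KO, against 18.5 and 21.6 CPM in WT (-0.94). In Ter119pos KO 4 were lower and 2 higher, or 36.4% and 18.2%, where 29.3% and 24.8% of all genes were called. Ifnar1, a chain of the type I receptor, stood at 29.8 and 27.7 CPM in Ter119pos KO, against 89.5 and 74 CPM in Ter119pos WT (-1.51, SE 0.12, adjusted p = 5.43e-07 by edgeR), Ifnar2 at 30.5 and 31.9 CPM in KO, against 66.6 and 54.5 CPM in WT, and Jak2, which also serves the erythropoietin receptor, at 51.7 and 52.6 CPM in KO, against 214 and 192 CPM in WT. These 3 were called lower without WT library A too, while Stat3 was higher with and without it and Jak1 only with it.

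Of 16 genes that sense nucleic acid or relay the signal, none was called in LK cells (1 higher and 4 lower with the block), 6 were lower and 1 higher in Ter119neg KO (37.5% and 6.25%), and 4 were lower and 4 higher in Ter119pos KO (25% each, 3 and 5 genes without WT library A). In the main fetal fits the shares of all genes were those just given, and with the LK letter block 9.9% were higher and 12.8% lower. Without WT library A they were those given above for Ter119pos cells. Aim2, the DNA sensor of the inflammasome, stood at 1.4 and 1.03 CPM in Ter119pos KO, against 20.5 and 17.3 CPM in Ter119pos WT (-3.93, SE 0.26, adjusted p = 2.43e-07 by edgeR). The adaptor gene Mavs, through which the RNA sensors signal, stood at 179 and 166 CPM in Ter119pos KO, against 106 and 110 CPM in Ter119pos WT (0.67), and Myd88 and Ticam1 were also higher (1.37 and 1.24). These 4 kept their call without WT library A. A list of 14 genes held mostly those that restrain the response or clear nucleic acid, and beside them Ube2l6, an enzyme that attaches Isg15. None was called in LK cells (3 lower with the block). In each fetal fraction 6 were lower and 1 higher in KO, or 42.9% and 7.14%, with the same shares of all genes as above. The Ter119pos counts shifted without WT library A. Ube2l6 had the largest rise of the list in Ter119neg cells, at 9.65 to 10.5 CPM in KO, against 4.58 to 5.1 CPM in WT. Trex1, the exonuclease that clears cytosolic DNA, was at 16.9 and 22.8 CPM in Ter119pos KO, against 2.23 and 2.41 CPM in Ter119pos WT (3.09, SE 0.20, adjusted p = 2.43e-07 by edgeR). In Ter119neg cells it was the reverse, at 3.66 and 4.26 CPM in KO, against 5.72 and 6.35 CPM in WT (-0.61, SE 0.17, adjusted p = 0.0273 by edgeR), and the difference between fractions was called (3.70, SE 0.27).

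A further list of 69 interferon-induced genes outside the 43 gave 0 called of 62 tested in LK cells. Of the 62, 9 stood at an unadjusted p under 0.05 by edgeR, as did 2404 of all 13771 genes tested. With the letter block 10 were higher and 10 lower (9.9% and 12.8% of all genes). In Ter119neg KO 16 of 61 were lower and 2 higher (26.2% and 3.28%, against 9.55% and 9.57% of all genes), the lower ones with Ly6e, an interferon-induced membrane protein (-0.95), and the PYHIN gene Ifi203 (-1.07). In Ter119pos KO 17 of 61 were lower and 9 higher (27.9% and 14.8%, against 29.3% and 24.8% of all genes), or 9 and 11 of 63 without WT library A (23.4% and 19.8% of all genes). The immunoproteasome activator gene Psme1 stood at 66.7 and 87.6 CPM in Ter119pos KO, against 13.2 and 12.5 CPM in Ter119pos WT (2.58, SE 0.14, adjusted p = 9.03e-08 by edgeR), and B2m, the light chain of class I molecules, at 30.8 and 40.5 CPM in KO, against 17.7 and 13.8 CPM in WT (1.17). Psmb10 and Psme2 were higher too (1.38 and 1.11). Pml, of the nuclear bodies, and the nucleotide kinase gene Cmpk2 were lower (-1.44 and -2.26). All 6 genes named here for Ter119pos cells kept their call without WT library A. Reads may be shared between near-identical copies in the Oas1, Ifit3, Trim30, Ifitm and PYHIN families, so single values there are less certain.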

How the data were processed

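RNA was sequenced from 14 libraries in 6 groups, with a stranded total RNA kit per the labels' protocols. The authors deposited expected counts per gene, made with STAR 2.5.3 and RSEM (version not given in the sources used here) on GRCm38 (mm10), per the submitters' processing notes. Whether counting used strand is not given in the sources used here. Expected counts were rounded and tested by edgeR 4.0.16 in R 4.3.3, with its quasi-likelihood F test, TMM scaling and filterByExpr, in 1 model of the 6 LK and 1 of the 8 fetal libraries, with p-values adjusted by Benjamini and Hochberg over all genes tested and called under 0.05. The standard error (SE) is the absolute log2 fold change divided by the root of F. CPM were TMM-normalised within each table, and floors of 3 counts cover counting error only. The script was tested on simulated data.

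The members, lists, tests and rules were chosen with earlier results of these data known. Full statistics were for called members and those whose groups do not overlap, and for up to 4 genes per pathway or marker list by smallest p. Ifi205 and Trex1 in Ter119neg cells, and B2m, Psme2, Dtx3l, Stat3 and Jak1 in Ter119pos cells, fall outside that rule and were chosen after their values were seen. Alternatives were RLE scaling, protein-coding scaling without globin genes, no filter, DESeq2 1.42.0, limma-voom (limma 3.58.1), a length correction, leaving out libraries, single-fraction models and replicate blocks. Same-letter LK libraries deviated together (r of 0.604, 0.719 and 0.730), so the letters were taken to pair them. Fetal letters did not (0.0047 and -0.0288), while mice 1, 2 and 4 gave both fractions. DESeq2 values left without an adjusted p stayed out of counts. Some genes of the lists are not reported here.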

Additional observations from a re-analysis of the deposited data

Results flagged for a closer look

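The effect of Prmt5 deletion (log2 fold change of KO over WT) differed between the fetal liver fractions for 11 genes, by edgeR's test of the difference itself. These were 3 higher and 8 lower effects in Ter119pos cells, or 7.32% and 19.5% of 41 genes, where 19.3% and 22.4% of all genes differed. Given as Ter119pos minus Ter119neg, the difference was 3.13 for Oasl2, 2.19 for Bst2 and 1.36 for Ifitm2. It was -2.69 for Isg20, -1.92 for Adar, -1.68 for Eif2ak2, -1.66 for Parp9, -1.53 for Irf9, -1.27 for Ifih1, -1.04 for Stat2 and -1.03 for Ifit2. Without Ter119pos WT library A, Ifih1, Stat2 and Ifit2 were no longer called, and with mouse as a block Stat2 and Ifit2 were not. Ifit2 lost its call under 10 of 15 alternatives, DESeq2 among them. With the block by mouse the higher effects numbered 14 and the lower ones 6, where 18.6% and 21.6% of all genes differed. Ter119pos WT library A held 590.5 CPM of the 43 genes, against 289.4 CPM in Ter119pos WT library B. Its part in the differences that remained was not tested beyond leaving it out. Ter119pos WT library A was singled out by the values of the 43 genes themselves. The groups were too small for a formal search for outlying libraries.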

How the results depend on the processing

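With the replicate block by letter, 1 member was higher and 2 lower in LK KO, against 0 and 0, where 9.9% and 12.8% of all genes were called. DESeq2 called 1 lower there, and 3.93% of all genes higher and 3.9% lower. The other LK alternatives called 0 in either direction. In Ter119neg cells Irf1 and Oas2, called lower by edgeR, and Ifitm2, called higher, lost the call by DESeq2. In Ter119pos cells leaving out single libraries gave 5 to 7 higher and 8 to 19 lower. For the difference between fractions, no filter on low counts gave 8 with a higher effect, the replicate block by mouse 14, and leaving out single libraries 3 to 12 higher and 5 to 10 lower. The one reversal was Parp14, Ter119pos against Ter119neg in WT, at -0.0897 (log2) with the block by mouse, and the cause was not tested. The block by letter in the fetal fractions left the member counts of the main fits unchanged. These were 4 higher and 10 lower in Ter119neg KO (9.57% and 9.55% of all genes in the main fit). In Ter119pos KO they were 6 and 12 (24.8% and 29.3% of all genes in the main fit). Of the called genes, 2 of 14 in Ter119neg, 13 of 18 in Ter119pos and 8 of 11 for the difference kept their call under every alternative run. With 2 fetal libraries per group, and Oasl1, Ifit3 and Ifi44 at a few counts, depth limits what the lowest genes can show.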
